A study of Mus musculus with 50 samples.

Results

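The genes described here are 8 transcriptional regulators: the zinc finger factors Egr1, Egr2 and Egr3, their co-repressors Nab1 and Nab2, and the orphan nuclear receptors Nr4a1, Nr4a2 and Nr4a3. They were chosen by symbol, taken from the gene column of the 6 h fat table and joined to the other tables by gene identifier, and all 8 were found among the gene rows, of which there were 55414 for quadriceps, 55414 for perigonadal white adipose tissue (pgWAT) at 1 h and 55401 for the same fat at 6 h. All mice were males with hM3DGq, a designer receptor that excites the neurons bearing it when clozapine N-oxide (CNO) is given. Mice positive for Gfral Cre are called TG and mice without Cre WT. CNO at 1 mg/kg was given to TG and WT alike, and there is no vehicle group among the samples, so CNO itself is common to all values below. Cre marks neurons with Gfral, the hindbrain receptor for GDF15, and not cells of muscle or fat, so the tissues measured are remote from the activated cells. The groups were quadriceps of clamped mice (10 WT, 10 TG), pgWAT taken 1 h after CNO (9 WT, 9 TG) and pgWAT taken 6 h after CNO (6 WT, 6 TG), and the comparisons address, per the series' design text, muscle that took up less glucose and fat that took up more. The labels give neither the age of the mice nor the time from CNO to tissue collection for quadriceps.

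EGR factors bind GC-rich sites and are switched on within minutes of a growth factor, calcium or stress signal, when serum response factor and its ternary complex partners act on CArG boxes in their promoters. NAB proteins bind an inhibitory domain shared by EGR1, EGR2 and EGR3 and recruit a chromatin remodelling complex, and because EGR factors in turn raise Nab2 they form a feedback brake. NR4A receptors need no known hormone: their activity follows their transcript level, which rises quickly after cAMP or calcium signals through CREB bound to cAMP response elements. In muscle they are known for raising genes of glucose use after adrenergic stimulation and exercise, and in fat Egr and Nr4a genes respond to insulin, lipolytic signals and inflammation.

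Transcripts were counted by 3′ mRNA sequencing, which reads the ends of polyadenylated RNA. Levels are in CPM, gene counts scaled to a common total with TMM factors, and changes are log2 of TG over WT with their standard error (SE). Unless another tool is named, p-values come from the quasi-likelihood F test of edgeR, adjusted by Benjamini and Hochberg's method over all genes tested in a set, with a threshold of 0.05, and a gene is said to have risen or fallen where it passed. Libraries held 959980 to 2613672 gene counts in quadriceps, 976610 to 4852560 in pgWAT at 1 h and 9150496 to 12883462 at 6 h, so that 3 counts, which a library with 0 counts may still hide, stood for 1.00 to 3.24, 0.587 to 3.31 and 0.241 to 0.352 CPM. That limit covers counting error only. Replicates are numbered in the labels, and nothing there says that they are different mice, so the p-values reflect only how much these samples vary, which may be technical variation. In bulk tissue, fewer cells of a type and less RNA per cell cannot be told apart.

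Several libraries stood apart. In quadriceps the sum of 3 inducible heat shock transcripts (Dnajb1, Hspa1a and Hspa1b) was 2796 CPM in WT 2 and 1565 CPM in WT 10, against 35.6 to 281 CPM in the other 18, and WT 2 also held 250 CPM of liver transcripts, against 0 to 3.91 CPM in the other 19. In pgWAT at 1 h, liver transcripts summed to over 200 CPM in WT 5, WT 6, WT 7, WT 8 and TG 3 (up to 9255 CPM), and duct epithelium transcripts (Lrp2 and Cldn10) to over 100 CPM in WT 2, WT 9, TG 4 and TG 6. At 6 h, TG 2 held 1455 CPM of liver transcripts. These libraries were singled out after their marker levels were seen, and values without them are given beside the main results. The tissue labels matched their markers: 4 muscle genes (Acta1, Ckm, Myh4 and Mb) summed to 23415 to 41610 CPM in quadriceps, and 4 adipocyte genes (Adipoq, Plin1, Cidec and Lep) to 4331 to 8119 CPM in pgWAT at 1 h and 10364 to 12893 CPM at 6 h.

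Of the 8 genes, 1 passed the test in any set: Egr3 fell in pgWAT at 6 h. In quadriceps 5 of the 8 passed the filter on low counts (Egr1, Nab1, Nr4a1, Nr4a2 and Nr4a3) and 0 were called, beside 2.03% of all 8070 genes tested (1.09% higher and 0.942% lower). The gene nearest to a call was Nr4a3, lower in TG muscle by 1.04 on the log2 scale (adjusted p = 0.0524). In pgWAT at 1 h 6 passed the filter (Egr1, Egr3, Nab1, Nab2, Nr4a1 and Nr4a2) and 0 were called, beside 0.0722% of 11087 genes (0.0541% higher and 0.018% lower), with Egr1 at 1.23 (adjusted p = 0.0958). At 6 h all 8 were tested and 1 was called lower, beside 14.4% of 14359 genes called in either direction, 6.88% higher and 7.54% lower. An unadjusted p under 0.05 was found for 2 of 5, 1 of 6 and 3 of 8, beside 11.7%, 4.62% and 26.6% of all genes. The median log2 change of the genes tested came to -0.25 for muscle, 0.36 for fat at 1 h and -0.49 for fat at 6 h, where the median over all genes lay within 0.01 of 0. Without the libraries that stood apart 0 of the 8 were called in any set, with 5, 8 and 8 tested and medians of -0.041, -0.029 and -0.44. TG and WT levels overlapped for every one of the 8 genes in every set, where 0.297%, 0.018% and 7.68% of all genes tested did not overlap.

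**Figure D1:**
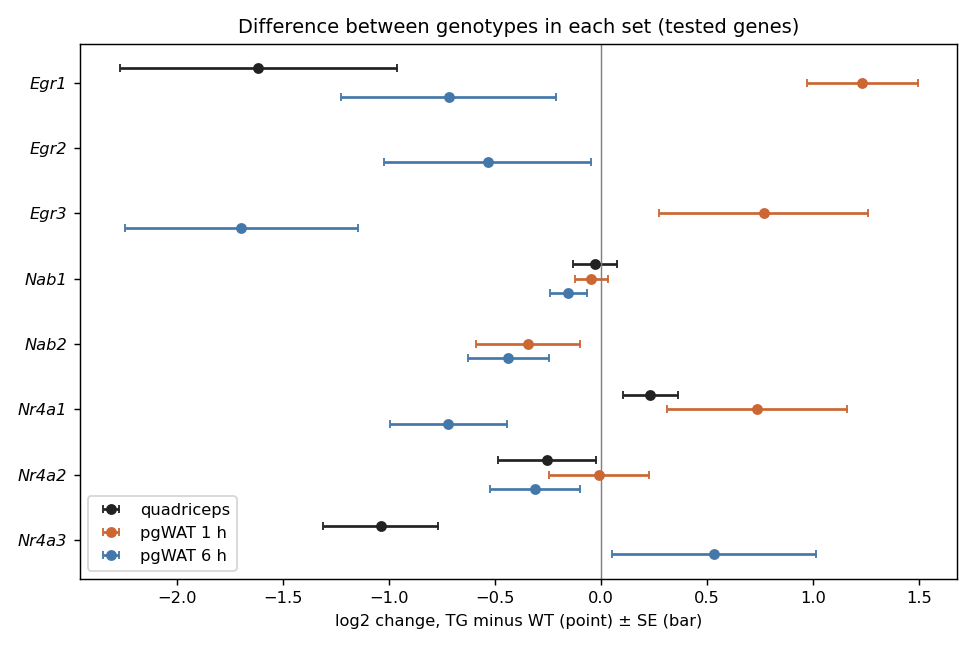
Log2 change of TG over WT (x axis) for each Egr, Nab and Nr4a gene tested (y axis) in quadriceps (black), pgWAT at 1 h (orange) and pgWAT at 6 h (blue), with bars of 1 SE. Egr3 at 6 h (-1.70) is the point that passed the test, Egr1 lies at 1.23 in pgWAT at 1 h and at -0.72 at 6 h, and Nab1 lies near 0 in all 3 sets.

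Egr1 (ENSMUSG00000038418), the founding member of its family, showed its clearest difference in pgWAT at 1 h. WT libraries ran from 29.7 CPM over a median of 53.6 to 135 CPM, and TG libraries from 85.2 over 128 to 232 CPM. All 9 TG libraries lay above the WT median and 8 of 9 WT libraries lay below every TG library; the exception, WT 3 at 135 CPM, is what makes the groups overlap, since the next WT library stood at 80.5 CPM. The means were 59.4 ± 32.2 and 138 ± 44.4 CPM (SD, n = 9 each), a log2 difference of 1.23 (SE 0.26) that ranked 17th by p but did not pass over all genes in edgeR (unadjusted p = 1.47e-04, adjusted p = 0.0958). DESeq2 called it (1.23, adjusted p = 0.00287), and so did edgeR without WT 3 (1.48, adjusted p = 0.00215). Without the 9 libraries with liver or duct transcripts, which leaves 3 WT and 6 TG, the difference was 0.67 (adjusted p = 0.99985). The WT libraries left are WT 1, WT 3 and WT 4, so the high library WT 3 is 1 of 3 in that fit. How much of the smaller difference is due to WT 3 was not tested. The library numbers in the sample descriptions share few remainders after division by 8, which separate these samples in part. In the largest such group, which holds WT 3, the mean was 64.2 CPM (29.7 to 135) in 6 WT and 136 CPM (85.2 to 232) in 6 TG libraries. When the model took that remainder into account the change was 1.22 (adjusted p = 0.394). Mesothelial markers (Msln, Upk3b, Krt19, Wt1 and Lrrn4, 5 of 5 detected and tested, 0 called) summed to 17.9 to 191 CPM in WT (median 52.8) and 39.8 to 361 CPM in TG (median 104), and their part in the Egr1 difference was not tested.

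At 6 h Egr1 lay on the other side of 0. WT libraries held 21.1 to 44.6 CPM (median 32.3) and TG libraries 8.91 to 55.0 CPM (median 10.2). Of the 6 TG libraries 4 lay between 8.91 and 10.3 CPM, below every WT library, TG 1 stood at 23.9 and TG 5 at 55.0 CPM, above all. The means were 32.3 ± 11.7 and 19.5 ± 18.3 CPM (SD, n = 6 each), a log2 difference of -0.72 (SE 0.51, adjusted p = 0.415). The call turned on 1 library, since without TG 5 the difference was -1.37 and passed (adjusted p = 0.0242). TG 5 also held the most inducible heat shock transcripts of this set, 86.7 CPM against 36.7 to 62.3 CPM in the other 11, and their part in its Egr1 level was not tested. Its macrophage markers were the lowest of the set at 693 CPM, where TG 1 had the highest at 1437 CPM.

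The difference between those times was tested with a term for set by genotype over 13022 genes, of which 4.21% passed. That fit took the spread of each gene as common to both sets, although their depth and kit differ. The genotype difference of Egr1 at 6 h minus that at 1 h was -1.96 on the log2 scale (SE 0.53, adjusted p = 0.0290), which makes Egr1 the single gene of the 8 to pass in this contrast. Without the libraries that stood apart it was -1.28 and no longer passed (adjusted p = 0.4931). That fit keeps WT 3 among 3 WT libraries at 1 h. Without a filter on low counts the Egr1 contrast was -1.94 (adjusted p = 0.0559). The call was also lost on leaving out any of 7 single libraries of the 6 h set (WT 1, 5 or 6, TG 2, 3, 4 or 6; adjusted p up to 0.0590). Time and library kit cannot be told apart in this contrast, since the 6 h libraries were made with another kit.

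In quadriceps Egr1 had the widest spread of the 5 genes tested. WT libraries ran from 12.4 over 38.6 to 372 CPM and TG libraries from 4.22 over 21.4 to 73.4 CPM. The highest WT libraries were WT 2 (372 CPM), WT 10 (234 CPM) and WT 1 (104 CPM), and only these 3 lay above every TG library. The means were 91.2 ± 119 and 28.8 ± 22 CPM (n = 10 each), a difference of -1.62 (SE 0.65, adjusted p = 0.296). Since WT 2 and WT 10 are also the libraries high in heat shock transcripts, and WT 2 in liver transcripts, the difference was refitted without them and came to -0.34 (adjusted p = 0.867). The part of either in those levels was not tested. The genotype difference of Egr1 in quadriceps minus that in pgWAT at 1 h was -2.86 (SE 0.70, adjusted p = 0.0755, where 0.273% of 11009 genes passed). It was -1.02 without the libraries that stood apart (adjusted p = 0.804), a fit that keeps WT 3 of the 1 h set. Minus that in pgWAT at 6 h it was -0.87 (adjusted p = 0.725, where 5.06% of 10729 passed), and 0.27 without those libraries (adjusted p = 0.930).

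**Figure D2:**
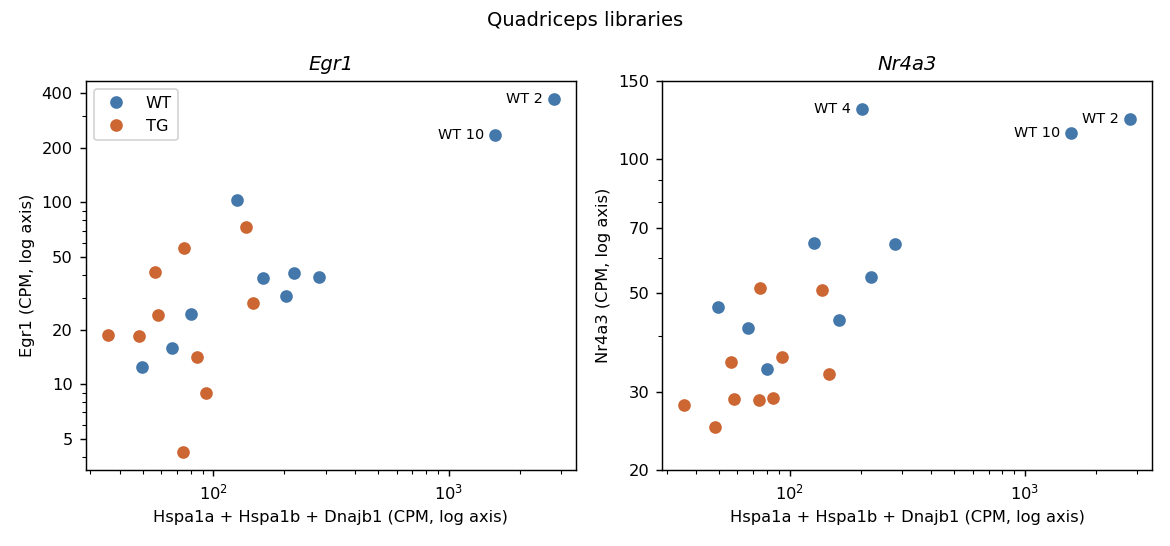
Level of Egr1 (left) and Nr4a3 (right) against the summed level of the heat shock transcripts Dnajb1, Hspa1a and Hspa1b in each of 20 quadriceps libraries, all in CPM on log axes. WT 2 and WT 10 lie alone at the right, at 372 and 234 CPM of Egr1 and at 123 and 115 CPM of Nr4a3.

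Egr3 (ENSMUSG00000033730; chromosome 14, 70077203 to 70082614, GRCm38 with GENCODE vM21, as for all positions of genes here), a factor that binds the same kind of site as Egr1, was the gene called at 6 h. Its levels were low, from 0.347 over 1.80 to 4.25 CPM in WT and from 0.0930 over 0.424 to 1.28 CPM in TG, and rested on 129 WT and 40 TG counts in all. All 6 TG libraries lay below the WT median, with overlap because WT 2 and WT 3 stood at 0.347 and 0.940 CPM. It fell by 1.70 on the log2 scale (SE 0.55, adjusted p = 0.0488) from 1.94 ± 1.38 to 0.573 ± 0.429 CPM (n = 6 each). The call was close to the threshold and was lost on leaving out any of 9 of the 12 libraries, WT 1, 4, 5 or 6 and TG 1, 2, 3, 5 or 6 (adjusted p up to 0.133). TG 2, the library with liver transcripts, was among them (-1.48, adjusted p = 0.0893 without it). DESeq2 also called it (-1.73, adjusted p = 0.0256). Marker transcripts at 6 h were as follows. Skeletal muscle transcripts (1 of 4 tested, Acta1, which was called higher in TG) summed to 19.2 to 48.8 CPM in WT and 58.7 to 117 CPM in TG libraries, without overlap. Heat shock transcripts (2 of 3 called, Dnajb1 higher and Hspa1b lower) summed to 36.7 to 55.5 and 52.1 to 86.7 CPM, and lymphocyte transcripts (1 of 6 tested, 0 called) to 4.66 to 20.3 and 1.12 to 5.11 CPM. Of the mesothelial markers 1 of 5 was called, Wt1, lower in TG (sums of 103 to 212 and 62.4 to 252 CPM), and of the adipocyte genes 1 of 4, Cidec, higher. The part of these in the 6 h differences of the 8 genes was not tested.

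At 1 h Egr3 lay on the other side of 0 without passing. WT libraries held 1.62 to 28.2 CPM (median 4.01) and TG libraries 6.11 to 37 CPM (median 9.00), and all 9 TG libraries lay above the WT median. WT 3 and TG 9, at 28.2 and 37 CPM, were far above the rest of their groups. The log2 difference was 0.77 (SE 0.49, adjusted p = 0.9998) with all libraries and 1.32 without WT 3 (adjusted p = 0.703). It was 0.42 without TG 9 (adjusted p = 0.9998) and 0.45 without the libraries that stood apart (adjusted p = 0.99985). That last fit keeps WT 3 among 3 WT libraries. The genotype difference of Egr3 at 6 h minus that at 1 h was -2.48 (SE 0.80, adjusted p = 0.0805). In quadriceps Egr3 was too low to be tested, with 27 counts in the 10 WT and 7 in the 10 TG libraries, and with no count in 2 WT and 5 TG libraries. A fit without the filter on low counts gave -1.68 (SE 0.57, unadjusted p = 0.00337, adjusted p = 0.157).

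Egr2 (ENSMUSG00000037868; chromosome 10, 67535475 to 67542188), best known for Schwann cell myelination and for early adipocyte differentiation, was low throughout. At 6 h it was at 3.74 ± 1.47 (WT) and 2.57 ± 2.14 CPM (TG), a difference of -0.54 (SE 0.49, adjusted p = 0.540). There TG 1 and TG 5, at 5.38 and 5.16 CPM, stood with the highest WT libraries and the other 4 TG libraries lay between 0.465 and 1.69 CPM. It was not tested at 1 h (105 WT and 120 TG counts) or in quadriceps (29 and 19 counts).

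Neither co-repressor passed in any set in edgeR. Nab1 (ENSMUSG00000002881; chromosome 1, 52457294 to 52500679) held 48.5 ± 8.41 (WT) and 48.1 ± 5.54 CPM (TG) in quadriceps, 201 ± 18.1 and 195 ± 21.7 CPM in pgWAT at 1 h, and 72.7 ± 3.03 and 65.3 ± 9.83 CPM at 6 h. Its log2 differences were -0.03 (SE 0.10), -0.05 (SE 0.08) and -0.15 (SE 0.09), with adjusted p-values of 0.962, 0.9998 and 0.276. These CPM levels were scaled within each set, and levels were not tested between the sets. Nab2 (ENSMUSG00000025402; chromosome 10, 127660918 to 127668568) was at 10.1 ± 3.54 (WT) and 7.77 ± 3.25 CPM (TG) in pgWAT at 1 h, a difference of -0.35 (SE 0.25, unadjusted p = 0.173). At 6 h WT libraries held 6.24 to 12.4 CPM (median 10.5) and TG libraries 3.64 to 8.94 CPM (median 8.12). All 6 TG libraries lay below the WT median there, and WT 2 at 6.24 CPM made the groups overlap. That difference was -0.44 (SE 0.19, unadjusted p = 0.0370, adjusted p = 0.153). In quadriceps Nab2 had 37 WT and 21 TG counts and was not tested. On the opposite strand it overlaps Stat6 by 40 bases, Nemp1 by 1668 and Gm16229 by 1646, and without a stated strand setting reads there cannot be told apart.

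**Figure D3:**
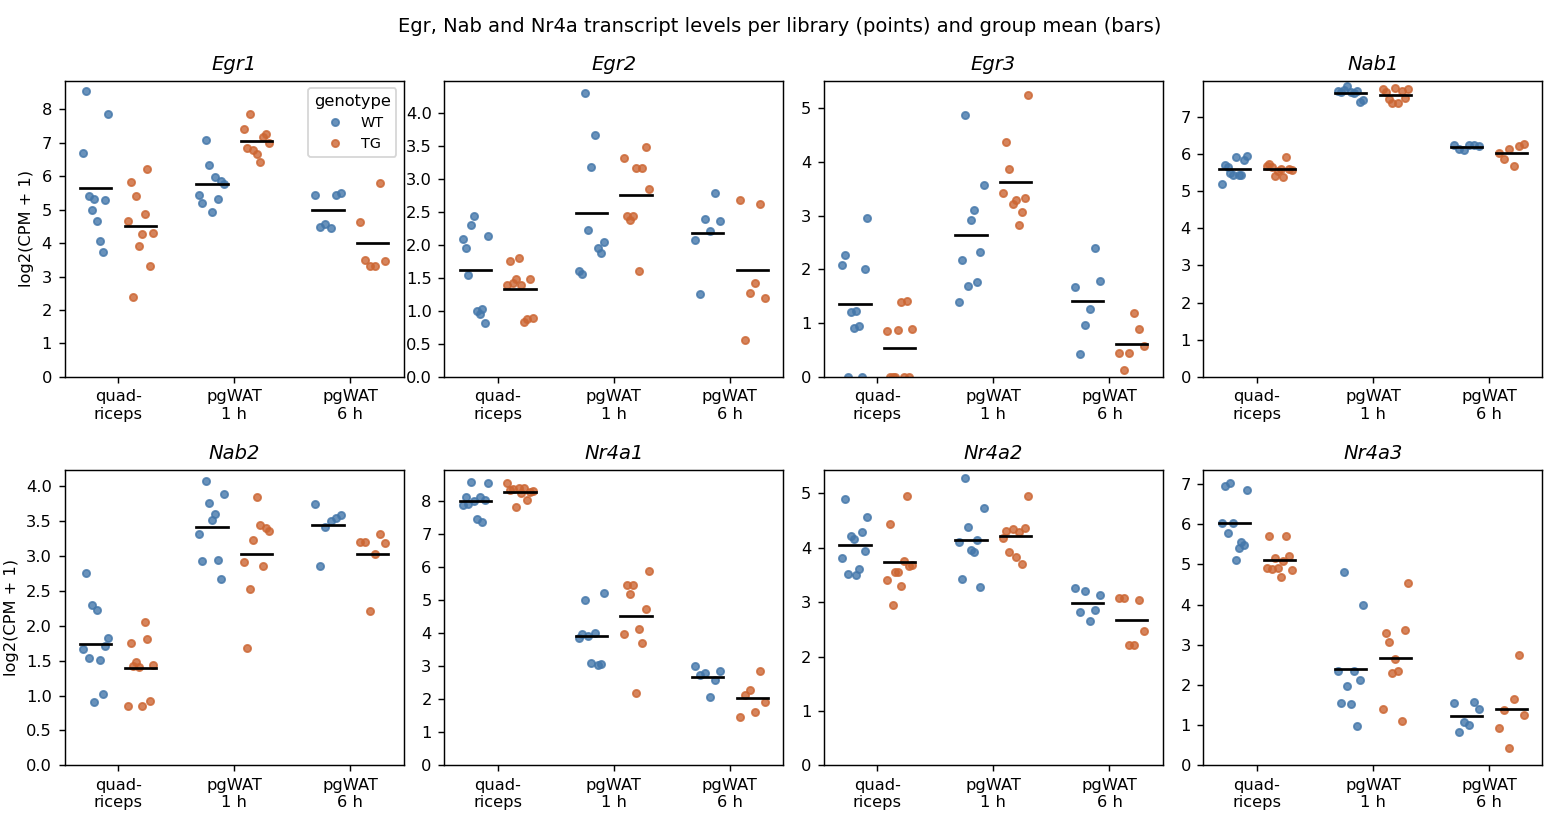
Level of each Egr, Nab and Nr4a gene in every library of quadriceps, pgWAT at 1 h and pgWAT at 6 h, as log2 of CPM plus 1 with a separate y axis for each gene; points are libraries and short bars are group means. TG points of Egr1 lie above most WT points at 1 h, and TG 5 is the high point of Egr1 and Nr4a3 at 6 h. TG points of Nr4a3 in quadriceps lie low in the WT range or, for 6 of 10, below every WT point.

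The promoters are shown because cAMP response elements and CArG boxes are the sites through which these genes are known to respond. RefSeq windows of GRCm38.p6 matched 6 of the 8 genes (all but Egr1 and Egr3), and the 250 bases upstream of each start were searched on both strands. The search was for the cAMP half-site TGACG, the full element TGACGTCA, the CArG box, the NR4A monomer site AAAGGTCA and the EGR sites GCGTGGGCG and GCGGGGGCG. The sequences below run 5′ to 3′ along the gene's strand, and capitals mark half-sites on either strand (CGTCA is the half-site read from the other strand) and the CArG box. They lie at chr2:57124004-57124253 (minus strand, Nr4a2), chr4:48045055-48045152 (plus, Nr4a3, the part before the earliest annotated exon), chr15:101266596-101266845 (plus, Nr4a1) and chr10:67537619-67537868 (plus, Egr2).
Nr4a2: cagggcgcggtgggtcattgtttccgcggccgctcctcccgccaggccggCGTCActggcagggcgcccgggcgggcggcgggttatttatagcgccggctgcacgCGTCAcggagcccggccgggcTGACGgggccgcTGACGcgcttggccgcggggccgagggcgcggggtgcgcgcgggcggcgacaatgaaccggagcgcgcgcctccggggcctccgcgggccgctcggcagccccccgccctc
Nr4a3: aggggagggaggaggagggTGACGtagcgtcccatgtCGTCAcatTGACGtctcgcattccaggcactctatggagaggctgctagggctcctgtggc
Nr4a1: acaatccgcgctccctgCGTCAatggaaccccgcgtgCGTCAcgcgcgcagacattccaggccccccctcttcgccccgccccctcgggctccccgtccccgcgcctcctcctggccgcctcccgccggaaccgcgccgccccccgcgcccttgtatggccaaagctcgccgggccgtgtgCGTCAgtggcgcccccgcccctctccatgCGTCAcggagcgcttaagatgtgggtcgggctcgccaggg
Egr2: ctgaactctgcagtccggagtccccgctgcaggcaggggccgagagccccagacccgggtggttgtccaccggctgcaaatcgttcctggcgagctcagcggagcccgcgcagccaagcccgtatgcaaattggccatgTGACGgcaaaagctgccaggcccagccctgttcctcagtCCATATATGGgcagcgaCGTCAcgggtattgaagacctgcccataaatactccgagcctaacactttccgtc

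Each of the 3 Nr4a windows held 4 half-sites over its 250 bases, a number reached by 0.137% of 32851 RefSeq windows of that length, while 17.8% held at least 1. For Nr4a3, 3 of the 4 lie in the stretch printed. Nab1 held 1 half-site and Nab2 held 0. The CArG box, found in 1.47% of all windows, occurred in 4 of 5 Egr2 windows, of which 3 overlap and hold the same box. The Egr2 window printed was picked as the first with both a CArG box and half-sites. The first base of its box lies 72 bases before the start, with half-sites 111 and 55 bases before that start. The Egr2 window at chr10:67535249-67535498 held neither motif, and the one at chr10:67537316-67537565 held a box but no half-site. The full element (1.55% of windows) and the NR4A monomer site (1.34%) occurred in none of the 6 genes' windows, and the EGR sites (3.06%) occurred 3 times in Nab1 and 1 time in Nr4a1. A match describes the letters and not binding.

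The NR4A receptors lay on both sides of 0 in quadriceps. Nr4a3 (ENSMUSG00000028341; chromosome 4, 48045153 to 48086447), a receptor strongly induced in muscle by adrenergic signals and exercise, held 33.8 to 130 CPM (median 59.5) in WT and 24.9 to 51.3 CPM (median 31.0) in TG libraries. All 10 TG libraries lay below the WT median, 6 of them below every WT library, and 6 WT libraries lay above every TG library. The means were 71.7 ± 36.5 for WT and 34.6 ± 9.34 CPM for TG (n = 10 each), a difference of -1.04 (SE 0.27, unadjusted p = 0.00109). It ranked 167th by p where 164 genes passed, with an adjusted p of 0.0524. DESeq2 called it lower (-1.05, adjusted p = 0.00705), as did edgeR with a term for the remainder of the library number (-1.03, adjusted p = 0.0194) and without any one of WT 6, 7 or 9 or TG 2 or 8 (adjusted p down to 0.0164). Within the 2 remainder groups the means were 57.4 CPM in 6 WT and 29.8 CPM in 6 TG libraries, and 93 CPM in 4 WT and 41.8 CPM in 4 TG libraries. Without the heat shock libraries WT 2 (123 CPM) and WT 10 (115 CPM) it was -0.79 (adjusted p = 0.145).

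Nr4a1 (ENSMUSG00000023034; chromosome 15, 101254269 to 101274795), the relative that in muscle raises genes of glucose use, lay on the other side of 0 in the same libraries. WT quadriceps held 166 to 386 CPM (median 258) and TG quadriceps 226 to 373 CPM (median 320). Of the 10 TG libraries 9 lay above the WT median, within the WT range. The means were 265 ± 71.3 and 311 ± 41.0 CPM, a difference of 0.23 (SE 0.13, unadjusted p = 0.0859, adjusted p = 0.529), and 0.32 without WT 2 and WT 10 (adjusted p = 0.314). Nr4a2 (ENSMUSG00000026826; chromosome 2, 57106830 to 57124003), known for its role in dopamine neurons, was at 16.4 ± 5.89 (WT) and 13.3 ± 6.88 CPM (TG) in muscle (-0.25, SE 0.23, adjusted p = 0.759), and the difference was -0.041 without WT 2 and WT 10.

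In pgWAT the receptors were low and no difference passed. At 1 h Nr4a1 ran from 7.18 over 14 to 36.4 CPM in WT and from 3.54 over 25.8 to 58.6 CPM in TG libraries, a spread of more than 10-fold within TG. Its difference was 0.74 (SE 0.42, unadjusted p = 0.0987, adjusted p = 0.9998), and 0.40 without the libraries that stood apart. Nr4a2 held 18.2 ± 8.94 (WT) and 18.1 ± 5.31 CPM (TG), a difference of -0.01 that came to -0.41 without those libraries (adjusted p = 0.99985). That fit keeps WT 3, the highest WT library at 37.8 CPM of Nr4a2, among 3 WT libraries. Nr4a3 was not tested, with 133 WT and 128 TG counts. At 6 h Nr4a1 ran from 3.22 over 5.87 to 6.98 CPM in WT and from 1.73 over 3.08 to 6.28 CPM in TG. TG 5 was again the highest TG library, and the other 5 lay at or below 3.88 CPM. The difference was -0.72 (SE 0.28, adjusted p = 0.0955) with TG 5 and -1.01 (adjusted p = 0.0120) without it. Nr4a2 differed by -0.31 (adjusted p = 0.390). Nr4a3, at 1.41 ± 0.512 (WT) and 2.01 ± 1.90 CPM (TG), differed by 0.53 (SE 0.48, adjusted p = 0.532) with TG 5 (5.68 CPM) and by -0.11 without it. The genotype difference in quadriceps minus that in pgWAT at 6 h was 0.97 for Nr4a1 (SE 0.30, adjusted p = 0.0509, and 0.0498 without the libraries that stood apart) and -1.58 for Nr4a3 (SE 0.58, adjusted p = 0.135).

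Across libraries, after the genotype mean was subtracted, some of these genes varied together. In the 20 quadriceps libraries Pearson's r of log2 CPM was 0.74 for Nr4a2 with Nr4a3, 0.69 for Egr1 with Nr4a2 and 0.69 for Egr1 with Nr4a3, while Nab1 gave 0.09 to 0.32 with the other 4. Without WT 2 and WT 10 the first 3 values were 0.66, 0.57 and 0.51. In the 18 libraries at 1 h the highest were 0.64 for Nr4a1 with Nr4a2 and 0.62 for Egr3 with Nr4a2, and in the 12 at 6 h 0.74 for Nab2 with Nr4a3 and 0.73 for Egr1 with Egr2. These values are descriptions over libraries that differ in depth and in the markers given above.

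**Figure D4:**
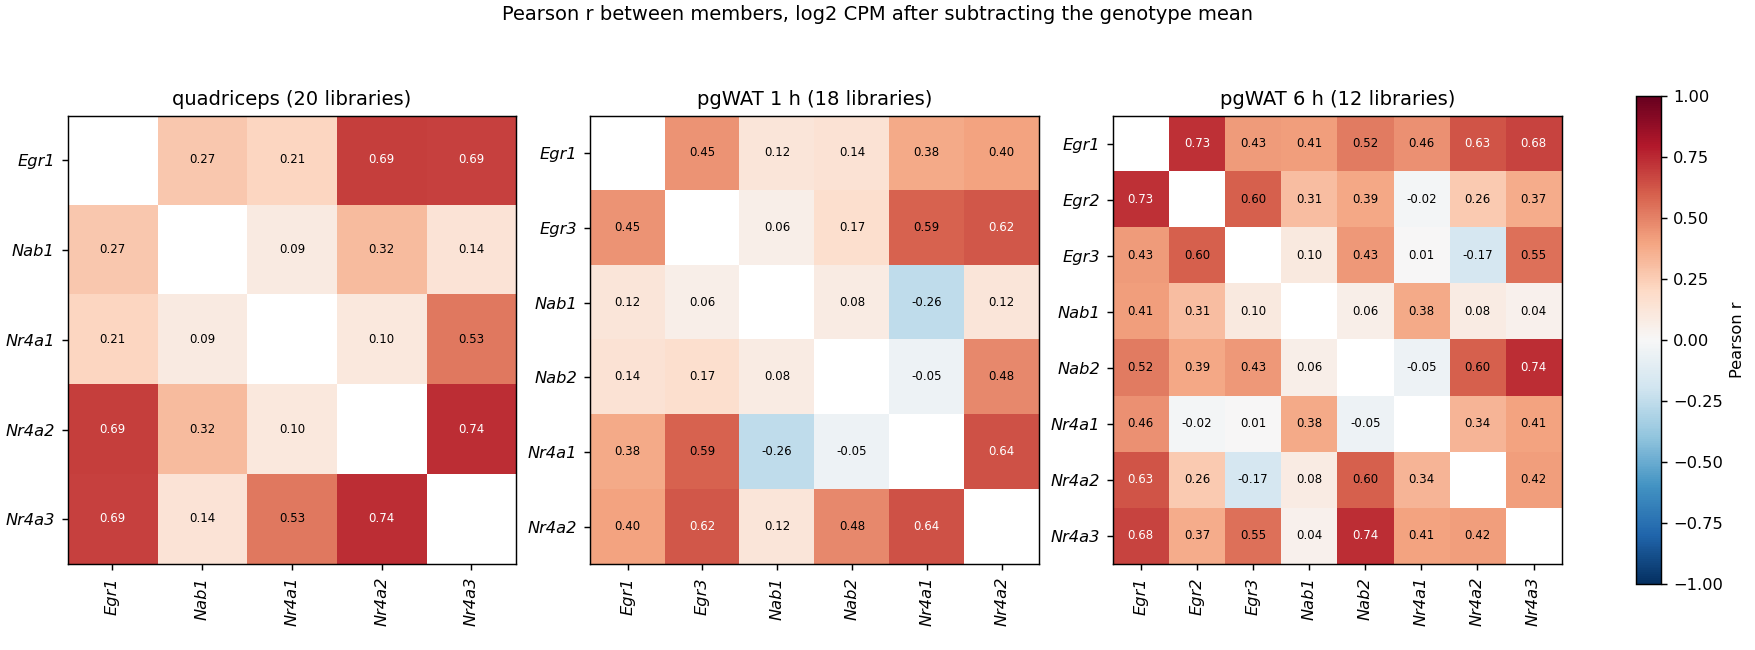
Pearson r between each pair of tested Egr, Nab and Nr4a genes over the libraries of quadriceps, pgWAT at 1 h and pgWAT at 6 h, computed on log2 CPM after the genotype mean was subtracted; red is positive and blue negative. In quadriceps Egr1, Nr4a2 and Nr4a3 form a block of 0.69 to 0.74, and Nab1 stays at or below 0.32.

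Among all tested genes with a mean of at least 5 CPM, those most like each gene were named by the highest r. The highest of so many values can be large by chance. They were not computed again without WT 2 and WT 10 of quadriceps or TG 5 of the 6 h set. In quadriceps Egr1 was most like the anti-proliferative early gene Btg2 (0.94), Ehd4 (0.90) and Otud1 (0.89). Nr4a3 was most like Ppargc1a, the coactivator of mitochondrial biogenesis (0.93), and the AP-1 factors Atf3 and Jun (0.87 each), Nr4a2 like Junb (0.77), Rspry1 (0.77) and Trib1 (0.76), Nr4a1 like Kif1b (0.85), Spop (0.85) and Eloa (0.82), and Nab1 like Eef1a1 (0.76). In pgWAT at 1 h Egr1 was most like the NF-κB cofactor Nfkbiz (0.81), Pim1 (0.80) and Hsp90b1 (0.78), Egr3 like Sbno2 (0.90), and Nr4a2 like the collagen gene Col1a1 (0.85). At 6 h, over 12 libraries, Egr1 was most like the monocyte chemokine genes Ccl2 (0.97) and Ccl7 (0.95) and Medag (0.95), Egr2 like Lrrfip1 (0.94), Egr3 like Gfra2 (0.95), Nr4a1 like Srsf10 (0.92) and Nr4a3 like Rassf1 (0.93).

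**Figure D5:**
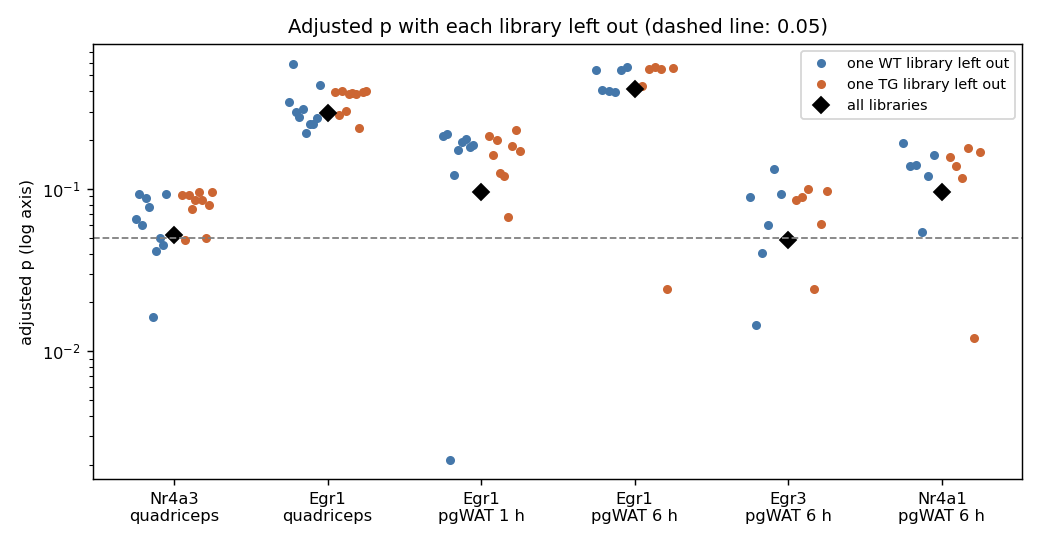
Adjusted p from edgeR (y axis, log scale, dashed line at 0.05) for Nr4a3 and Egr1 in quadriceps, Egr1 in pgWAT at 1 h, and Egr1, Egr3 and Nr4a1 in pgWAT at 6 h; coloured points are fits without 1 WT (blue) or 1 TG (orange) library and diamonds are fits with all libraries. Egr1 falls to 0.00215 at 1 h without WT 3 and to 0.0242 at 6 h without TG 5, and the points of Egr3 straddle the line from 0.0146 to 0.133.

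Other related genes were read from lists by count. Over all genes tested, 2.03% were called in quadriceps, 0.0722% in pgWAT at 1 h and 14.4% at 6 h (6.88% higher and 7.54% lower). Of 17 other immediate early transcription factors (Fos, Jun, Atf3, Klf and related genes, Myc and Egr4), 12 were tested in quadriceps and 13 in pgWAT at 1 h with 0 called in either. At 6 h 3 of 16 rose and 2 fell: the AP-1 factor Fosl2 (1.11), Klf6 (0.42) and Myc (0.96) rose, and Klf10 (-0.72) and Jund (-0.55) fell. The medians were -0.30, 0.16 and 0.02, and without the libraries that stood apart -0.093, 0.0073 and 0.041. Of 15 factors known to act on Egr and Nr4a promoters, 12 were tested in quadriceps, where Mrtfb, a coactivator of serum response factor, rose (0.39, adjusted p = 0.0115) and Creb1, whose protein recognises cAMP response elements, fell from 83.4 ± 10.3 to 56.1 ± 4.09 CPM (-0.58, adjusted p = 1.71e-05). In pgWAT at 1 h 0 of 12 were called. At 6 h 1 of 15 rose, Mrtfb (0.52), and 4 fell, among them Mef2c (-0.58), the ternary complex factor Elk3 (-0.67) and Creb1 (-0.37, adjusted p = 0.00336).

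Partners and targets were counted in the same way, beside the same shares of all genes called. None of 8 partner genes (retinoid X receptors, which pair with NR4A1 and NR4A2, the chromatin remodellers Chd3, Chd4 and Mbd3, and the acetyltransferases Ep300 and Crebbp) was called in edgeR in any set. An unadjusted p under 0.05 was found for 1, 0 and 3 of the 8, beside 11.7%, 4.62% and 26.6% of all genes. Of 14 genes reported as EGR1 targets, 0 of 10 were called in quadriceps and 0 of 14 in pgWAT at 1 h. At 6 h 5 of 14 fell and 1 rose, with a median of -0.37. The tissue factor gene F3 fell from 33.9 ± 8.97 to 15.7 ± 3.69 CPM (-1.11). Of 13 genes reported as NR4A targets in muscle or fat, 0 of 13 were called in quadriceps and 0 of 8 at 1 h. At 6 h 2 of 12 rose and 2 fell: Pdk4, which restrains pyruvate dehydrogenase, rose from 20.3 ± 6.49 to 114 ± 39.1 CPM (2.50), the phosphatidate phosphatase gene Lpin1 rose (0.71), and the uncoupling protein gene Ucp3 (-1.69) and Ppargc1a (-1.18) fell. These targets are also controlled by many other factors.

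MAPK phosphatases and Sprouty proteins shut down the kinase signals that induce Egr genes. In quadriceps 1 of 5 tested was called, Dusp1, which fell from 259 ± 73.8 to 145 ± 24.1 CPM (-0.83, adjusted p = 3.68e-04). At 1 h 0 of 9 were called, with a median of 0.32 (0.10 without the libraries that stood apart) and 4 with an unadjusted p under 0.05, beside 4.62% of all genes. At 6 h 4 of 11 fell and 1 rose: Dusp4 fell from 11.2 ± 1.47 to 2.85 ± 1.05 CPM (-1.99, adjusted p = 2.91e-06), Spry2 fell (-0.68) and Spry1 rose (0.49). Klf6, Myc, Ppargc1a and, at 6 h, Creb1 lie outside the rule for naming genes of a list, the 3 with the smallest p in each set, and were named after their values were seen. Without the libraries that stood apart, the genes named from these lists kept their direction and their call, with Dusp1 at -0.67 and Creb1 at -0.61 in quadriceps, while Crem, 1 of the 4 promoter factors that fell at 6 h, was lost (-0.38, adjusted p = 0.0736). The shares called in the lists stand beside 2.03% of all genes in quadriceps, 0.0722% in pgWAT at 1 h and 14.4% at 6 h. The lists were given no test of their own.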

How the data were processed

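The data were 3′ mRNA sequencing libraries (QuantSeq FWD) of mouse quadriceps and pgWAT, grouped by title. Quadriceps TG 10 is titled as clamped but has 1 h in its treatment label; its title was used. Per the labels' protocols the quadriceps and 1 h libraries used a second strand module with molecular identifiers and the 6 h libraries the standard kit. The submitters' processing notes list STAR 2.7.10, cutadapt 1.18, UMI-tools 1.1.2 and bcl2fastq 2.20.0.422 and the builds GRCm38 and GRCm39, for all samples alike. Which build belongs to each table, the counting program, its strand setting and any collapsing of identifiers are not given in the sources used here.

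Values as deposited by the authors were unnormalized whole-number counts for each gene. Rows that name no gene (5, 5 and 121) stayed out of tests and totals; gene rows took a mean of 74.9%, 65.3% and 99.8% of the counts in quadriceps, pgWAT at 1 h and pgWAT at 6 h. Symbols came from the 6 h table and, for identifiers it lacks, a table of gene names, and gene positions came from GENCODE vM21.

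Each set was tested as TG against WT with edgeR 4.0.16 in R 4.3.3 (filterByExpr by genotype, TMM scaling, robust quasi-likelihood F test, Benjamini-Hochberg adjustment, threshold 0.05), and pairs of sets by the interaction of set and genotype. Each pair of sets was scaled together, with the spread of each gene taken as common to both. The SE is the size of the log2 change divided by the square root of F. The scripts were tested on simulated counts with 200 changed genes. Alternatives were RLE scaling, no filter on low counts, DESeq2 1.42.0, a replicate block, the library number's remainder after division by 8 as a factor, each library left out in turn and, added after the data were seen, fits without libraries with over 1000 CPM of heat shock, 200 CPM of liver or 100 CPM of duct transcripts. Replicate numbers are shared between genotypes, but the deviations of same-numbered libraries correlated over 0.1 in 3 of 10, 4 of 9 and 1 of 6 pairs, so the numbers were not taken to pair the samples.

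The 8 genes are always named, then up to 3 genes past the threshold per list and set by smallest p, and the 3 genes most like each of the 8 in log2 CPM (prior count 2) after the genotype mean was subtracted. The genes and lists were chosen with earlier results of these data known. Not every gene that this rule would name is reported here.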

Additional observations from a re-analysis of the deposited data

Results flagged for a closer look

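Groups of libraries, 1 for each gene, genotype and set, were examined, 48 in all. Of these, 8 held a library whose gap to its neighbour was large for the group's range by Dixon's test at the 95% level. That level flags about 1 group in 20 by chance only where values are normally distributed. The test was run on CPM and not on log2 CPM, so the 8 cannot be read against that rate. In pgWAT at 1 h, WT 3 stood at 135 CPM of Egr1 (next 80.5) and 28.2 CPM of Egr3 (next 10.9). In the same set TG 9 stood at 37 CPM of Egr3 (next 19.9), 30.1 CPM of Nr4a2 (next 19.6) and 22.4 CPM of Nr4a3 (next 9.39), and it also held the most mesothelial (361 CPM) and macrophage (1534 CPM) transcripts of that set, whose part was not tested. At 6 h, TG 5 stood at 55.0 CPM of Egr1 (next 23.9) and 5.68 CPM of Nr4a3 (next 2.17), and TG 3 was low in Nab2 at 3.64 CPM (next 7.14). No quadriceps group was flagged, although its highest WT libraries of Egr1 held 372 and 234 CPM, since 2 high libraries shield each other in this test.

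The genotype difference of Egr1 differed between the pgWAT times, by -1.96 on the log2 scale for 6 h minus 1 h (edgeR interaction, adjusted p = 0.0290), with the limits given above.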

How the results depend on the processing

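Over 19 tested pairs of gene and set, 106 fits under settings other than a left-out library kept direction and side of the threshold in 98 cases, passed anew in 5, failed anew in 1 and changed sign in 2. Only Egr3 at 6 h passed in the main fit, so most of the 98 kept a sign and a failure to pass. Their size could still shift. Without the libraries that stood apart Egr1 was -0.34 in quadriceps (-1.62 with all libraries). In pgWAT at 1 h Egr1 was 0.67 (1.23 with all libraries). In quadriceps Nr4a3 passed with DESeq2 (-1.05), the replicate block (-0.97) and the library number's remainder (-1.03), and Nab1 was 0.020 without the libraries that stood apart. In pgWAT at 1 h the number of genes called was 5 without a filter on low counts, 23 with DESeq2, 3 with the remainder and 1 without the libraries that stood apart, and Egr1 passed with DESeq2 (1.23). Without the libraries that stood apart, Egr3 at 6 h was -1.48; in the contrast of 6 h with 1 h Egr1 was -1.28 (-1.94 without a filter), Nab2 0.10 and the count 319; in that of quadriceps with 1 h Nab2 was 0.11, Nr4a2 0.36 and the count 9 (18 without a filter); and in that of quadriceps with 6 h Egr1 was 0.27 and Nr4a1 1.06, which passed. The cause was not tested.

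The replicate block pairs numbers that share no stated source, and 2 of 10, 1 of 9 and 0 of 6 WT libraries correlated best with their own number. With the block 144, 5 and 1874 genes were called in quadriceps, pgWAT at 1 h and pgWAT at 6 h (164, 8 and 2071 without it). Egr1 at 1 h passed with the block (1.29, adjusted p = 0.00690) and Nr4a2 there was 0.058. In the contrast of 6 h with 1 h Egr3 (-2.75) and Nr4a1 (-1.50) passed with the block and Nr4a3 was -0.032, and in that of quadriceps with 6 h Nr4a1 passed (1.03).

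On leaving out each library in turn, Nab1 (-0.068 to 0.019) and Nr4a3 (-1.15 to -0.89) changed sign or call in quadriceps. At 1 h this held for Egr1 (1.1 to 1.48), Nr4a2 (-0.12 to 0.19) and the number of genes called (3 to 12), and at 6 h for Egr1 (-1.37 to -0.57), Egr3 (-2.11 to -1.31), Nr4a1 (-1.01 to -0.59) and Nr4a3 (-0.11 to 0.73). In the contrast of 6 h with 1 h it held for Egr1 (-2.61 to -1.81), Egr3 (-3.05 to -2.09), Nab2 (-0.19 to 0.045) and Nr4a3 (-0.14 to 0.90), in that of quadriceps with 1 h for Egr1 (-3.13 to -2.26) and Nab1 (-0.0062 to 0.073), and in that of quadriceps with 6 h for Nr4a1 (0.85 to 1.24) and Nr4a2 (-0.15 to 0.17). Depth limits Egr2, Egr3, Nab2 and Nr4a3 where they were not tested.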
